A study of Mus musculus with 29 samples.

Results

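TRAV17, TRAV18 and TRAV19 are variable (V) gene segments of the mouse T cell receptor alpha chain, named V17, V18 and V19 in the table used here. The members were every productive alpha-chain (TRA) row with exactly 1 of these 3 names, where a row is a combination of V segment, joining (J) segment and CDR3 amino acid sequence, called a clonotype here, and productive means that the CDR3 held no unresolved residue. They comprised 152 clonotypes and 1935 counts of TRAV17, 5 clonotypes and 19 counts of TRAV18, and 165 clonotypes and 921 counts of TRAV19. Together these 322 clonotypes were 1.47% of the 21959 productive TRA clonotypes and held 0.899% of their 319742 counts. The same V names on the beta chain, with 1104 rows of TRBV17 and 2289 of TRBV19, were kept out by the chain label.

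T cell receptor transcripts were sequenced from brain and ovary metastases of an experimental model of Braf-mutated mouse melanoma. The 5 treatments were the lead-in combination (anti-PD-L1 before trametinib with anti-PD-L1, day 3), concurrent trametinib and anti-PD-L1 (day 3), trametinib alone (day 3), the anti-PD-L1 lead-in alone (day 0) and untreated controls, named vehicle in their titles (day 0). Trametinib is an inhibitor of the kinase MEK, and anti-PD-L1 is an antibody that blocks an inhibitory ligand of T cells. Of 29 samples, 10 were ovary (2 per treatment) and 19 were brain (4 per treatment, 3 untreated). Titles give a number, and a part of it in all but 1 sample, which makes 2 numbers for every treatment in the brain and 1 in the ovary. The labels do not say what a number or a part stands for, so numbers were used as replicates and p-values measure only the spread between them, which may be technical. The age, strain and number of mice are not given in the labels, and all groups carried the same tumor model.

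The alpha-chain locus holds its V genes on 1 side and its J genes (TRAJ) on the other. TRAJ numbers fall with distance from the V genes, so a high number marks a J gene near them. In mouse thymocytes, rearrangement is known to begin with V genes near the J cluster and J genes at its V side, and later rounds on the same chromosome join V genes farther out to J genes farther in. In the RefSeq gene order of the mouse assembly GRCm38.p6, TRAV17, TRAV18 and TRAV19 were entries 124, 125 and 126 of 130 TRAV genes counted toward the J genes. Of the TRAV entries between TRAV19 and the TRAJ cluster, TRAV21/DV12 was the sole one not marked as a pseudogene. Genes named only for the delta chain were not counted.

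The CDR3 is the loop that meets peptide and MHC, and its first residues come from the V gene and its last from the J gene. The clonotypes below are shown because they were the largest of their V segment in an organ, because they recurred in several numbers, or, for TRAV18, because the segment had so few. The TRAV19 and TRAV18 clonotypes with TRAJ56 that meet the same rule are described below without their letters. The largest TRAV17 clonotype of the ovary and that of TRAV19 had 15 residues each and are not printed, so the next largest TRAV17 sequence and the next largest TRAV19 sequence stand in, chosen after their values were seen.
TRAV17 with TRAJ53, largest in brain: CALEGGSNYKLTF
TRAV17 with TRAJ48, ovary: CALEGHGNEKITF
TRAV19 with TRAJ50, largest in brain: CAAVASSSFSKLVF
TRAV19 with TRAJ31, ovary: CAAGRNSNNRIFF
TRAV19 with TRAJ48, in 3 numbers: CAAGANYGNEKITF
TRAV19 with TRAJ57, in 3 numbers: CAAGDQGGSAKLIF
TRAV18 with TRAJ23: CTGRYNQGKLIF
TRAV18 with TRAJ40: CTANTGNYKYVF
TRAV18 with TRAJ34: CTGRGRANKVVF
TRAV18 with TRAJ43: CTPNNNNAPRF

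Most clonotypes of a segment shared their first residues. Of TRAV17 clonotypes, 93.4% began with CAL and 65.1% with CALE, against 22.5% and 1.01% of the other TRA clonotypes. Of TRAV19 clonotypes, 92.7% began with CAA and 66.7% with CAAG, against 35.5% and 1.33% of the other TRA clonotypes. The starts do not identify a segment, since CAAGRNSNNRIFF, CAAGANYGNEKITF and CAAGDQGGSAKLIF were each listed with the same TRAJ under other V names too, TRAV10, TRAV4D-3 and TRAV14D-1 among them. All TRAV18 sequences began with CT. These residues and the V names come from the same reads, so these shares describe the names and are no independent test of them.

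Depth differed strongly between the organs. Ovary samples held 14088 to 51549 TRA counts (median 24750) and brain samples 230 to 9389 (median 1292). Summed over parts, an ovary library held 28528 to 80947 TRA counts and a brain library 635 to 18282, where a library is 1 number in 1 organ. Fewer T cells and less receptor RNA per cell cannot be told apart in such samples.

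All 3 segments were minor members of the alpha repertoire. By mean share of TRA counts over the 15 libraries, TRAV17 ranked 31st, TRAV19 ranked 37th and TRAV18 ranked 58th of 67 single TRA names, with means of 0.528%, 0.398% and 0.0130%. The largest share was 17.1% for TRAV7D-2.

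In ovary metastases TRAV17 took 0.470% of TRA counts in the lead-in combination, 0.520% in concurrent treatment, 0.575% in trametinib, 0.903% in the lead-in alone and 0.498% in the untreated library. By counts the lead-in library, number 10, was the high one, and the other 4 lay close together. By share of TRA clonotypes number 10 (0.705%) was below numbers 13 (0.771%) and 3 (0.729%). In brain metastases of the same 5 numbers, TRAV17 took 0.208%, 0.536%, 0%, 0% and 0.136% of TRA counts in the same order of treatments. The share of counts was higher in ovary than in brain in 4 of 5 numbers, and the organs overlapped through number 1. The 2 zeros were 0 of 1530 counts in number 13 and 0 of 930 in number 10, which allow shares of up to 0.196% and 0.323%, and the untreated brain value was 1 count. By share of TRA clonotypes, brain was above ovary in number 1 (0.714% and 0.557%) and number 12 (0.326% and 0.309%). Ovary was above brain only in numbers 3, 10 and 13, whose brains held at most 1 TRAV17 clonotype.

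TRAV17 averaged 0.593 ± 0.178% in ovary and 0.176 ± 0.220% in brain of the same numbers (SD, n = 5 each). The log2 fold change, ovary over brain, was 1.49 ± 0.78 (SE), with an adjusted p of 0.449 in edgeR's quasi-likelihood test over 111 V names of both chains. With the number as a block it was 1.79 and the adjusted p was 0.269, so the difference did not pass in either fit. The fold change moved to 2.45 without number 1 and to 0.29 with all 15 libraries. No V name passed in this comparison (0 of 111, 0%), although 15 had an unadjusted p under 0.05 and DESeq2 called 6, neither TRAV17 nor TRAV19 among them. By clonotypes in place of counts, the log2 fold change of TRAV17 was 0.67, and all 10 brain libraries, with 0.495 ± 0.519% of counts (SD, n = 10), spanned 0% to 1.73%.

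TRAV19 took 0.158% of TRA counts in the ovary with the lead-in combination, 0.309% with concurrent treatment, 0.133% with trametinib, 0.404% with the lead-in alone and 0.204% in the untreated ovary. In brain of the same numbers it took 0.268%, 0.285%, 0.131%, 0% and 0.955% in that order. The share was higher in ovary than in brain in 3 of 5 numbers, and the organs overlapped. TRAV19 averaged 0.242 ± 0.113% in ovary and 0.328 ± 0.369% in brain (SD, n = 5 each), with a log2 fold change of -0.33 ± 0.79 (SE) and an edgeR adjusted p of 0.891. Its sign depended on the setting, since it was 0.13 without the largest clonotype of each V name and 0.37 without number 3.

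**Figure D1:**
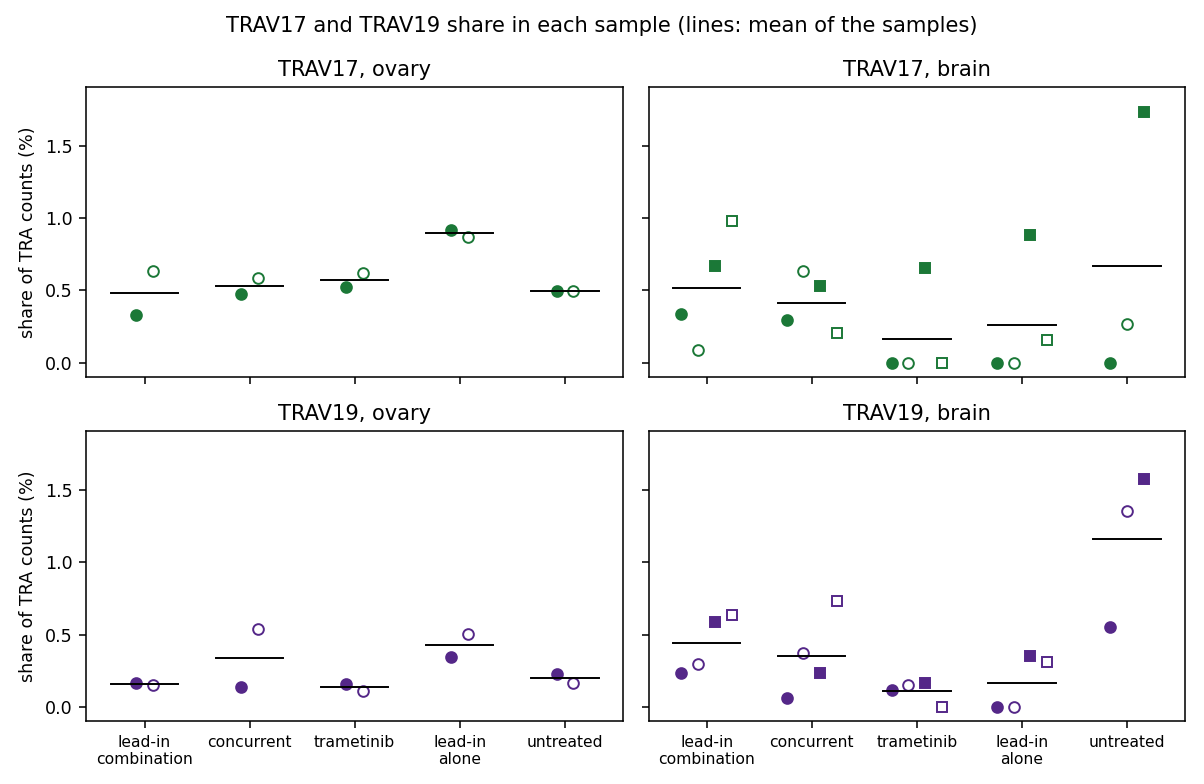
Share of TRA counts held by TRAV17 (upper row) and TRAV19 (lower row) in each sample, ovary left and brain right, by treatment. Each point is a sample, circles and squares are the different numbers of a treatment, filled points are the first or only part and open points the second, and lines are means of the samples. Ovary samples spanned 0.333% to 0.921% for TRAV17 and 0.111% to 0.538% for TRAV19, and brain samples 0% to 1.73% and 0% to 1.57%.

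No comparison between brain treatments passed for either segment. Brain TRAV17 shares by number were 0.208% and 0.794% in the lead-in combination, 0.536% and 0.360% in concurrent treatment, 0% and 0.419% in trametinib, 0% and 0.768% in the lead-in alone, and 0.136% and 1.73% in untreated brains. Every treatment overlapped with the untreated pair. TRAV19 shares were 0.268% and 0.605% in the lead-in combination, 0.285% and 0.498% in concurrent treatment, 0.131% and 0.105% in trametinib, 0% and 0.347% in the lead-in alone, and 0.955% and 1.57% in untreated brains. The untreated pair was above every treated library, but rested on 17 counts in all.

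Over the 5 brain treatments, edgeR gave an adjusted p of 0.911 for TRAV17 and 0.802 for TRAV19, with 0 of 99 V names called (0%), 2 at an unadjusted p under 0.05 and none called by DESeq2. The lead-in combination against concurrent treatment gave a log2 fold change of 0.15 ± 1.41 (SE) for TRAV17 and 0.16 ± 1.19 for TRAV19, adjusted p = 0.984 for both, in an edgeR fit that called 0 of 99 names (5 at an unadjusted p under 0.05, 0 by DESeq2). Anti-PD-L1 against none within day gave 0.15 ± 1.05 for TRAV17 and -0.37 ± 0.96 for TRAV19, with edgeR adjusted p of 0.965 and 0.913 and 0 of 99 names called (6 at an unadjusted p under 0.05, 0 by DESeq2). Standard errors near or above 1 on the log2 scale mean that differences of several fold were not detectable with 2 numbers per treatment at these depths. The lead-in combination brains, among the deepest, had TRAV17 intervals that did not overlap (95% exact binomial, 0.147% to 0.285% in number 12 and 0.650% to 0.960% in number 14). These intervals take every count as independent. Those of part 1 (0.228% to 0.481%) and part 2 (0.0368% to 0.168%) of number 12 did not overlap either, so they do not cover the spread between samples.

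Of the brain contrasts run, the one with the largest fold changes for both segments was trametinib against untreated. Trametinib brains were of day 3 and untreated brains of day 0, so drug and day cannot be told apart. TRAV19 had 3 counts in trametinib brains and 17 in untreated brains, a log2 fold change of -3.37 ± 1.51 (SE) with an unadjusted p of 0.0379 and an adjusted p of 0.751 in edgeR. TRAV17 had 4 counts in trametinib brains and 12 in untreated brains, with a log2 fold change of -2.29 ± 1.75 and an edgeR adjusted p of 0.897. Of the 12 untreated counts 11 came from number 7, without which the value was 0.43, and it was -8.76 without number 8. Neither passed, as did no V name of the 99 tested, although 5 had an unadjusted p under 0.05 and DESeq2 called 0.

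TRAV18 was seen in 5 of the 15 libraries, each with 1 clonotype of its own. Brain counts were 6 in number 12 and 2 in number 14, both of the lead-in combination, and 5 in number 6 of concurrent treatment. The clonotype of number 14 had TRAJ56 and 14 residues. Ovary counts were 2 in number 1 of concurrent treatment and 4 in number 10 of the lead-in alone. It was at 0 in the other 10 libraries: all trametinib and untreated libraries, both lead-in brains, the brain of number 1 and the ovary of number 12. The brain zeros of trametinib and untreated libraries allow 0.196% to 0.472%, more than the highest share seen (0.138%), so no difference between treatments can be read from them. With 19 counts it did not pass the filter for a usage test, and its J partners were 5 different genes, 3 of them numbered 40 or above.

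TRAV17 and TRAV19 clonotypes carried J genes from the V side of the cluster more often than other TRA clonotypes did, TRAV19 for most of its clonotypes and TRAV17 with many partners just below that end. The table listed 41 TRAJ names, numbered 2 to 58, and the 12 numbered 40 or above were taken as near the V genes. Over the series, 58.6% of TRAV17 clonotypes (89 of 152) and 83.6% of TRAV19 clonotypes (138 of 165) carried such a TRAJ, against 22.7% of the other 21637 TRA clonotypes. TRAJ numbered 50 to 58 made up 34.2% of TRAV17 and 61.2% of TRAV19 clonotypes, against 7.996% of the others. At the far end, TRAJ numbered 2 to 19 made up 3.29% of TRAV17 and 1.21% of TRAV19 clonotypes, against 23.8% of the others.

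TRAV19 was joined most often to TRAJ56, with 34 clonotypes (20.6%), then TRAJ57, with 25 (15.2%), and TRAJ49, with 14 (8.48%). TRAV17 had a broader set. Its most frequent partner was TRAJ37, with 18 clonotypes (11.8%), followed by TRAJ48 and TRAJ56, with 13 each (8.55%). TRAJ numbered 30 to 39 thus made up 31.6% of TRAV17 clonotypes, against 11.5% of TRAV19 and 26.1% of the other clonotypes. Several TRAV17 clonotypes with TRAJ37 or TRAJ48 were 1 substitution away from a much larger clonotype of the same number. The order of partners without such near copies was not computed, so the lead of TRAJ37 over TRAJ56 may rest on them. By counts, TRAJ53 (13.4%) and TRAJ48 (12.7%) stood above TRAJ37 (10.9%) in TRAV17.

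**Figure D2:**
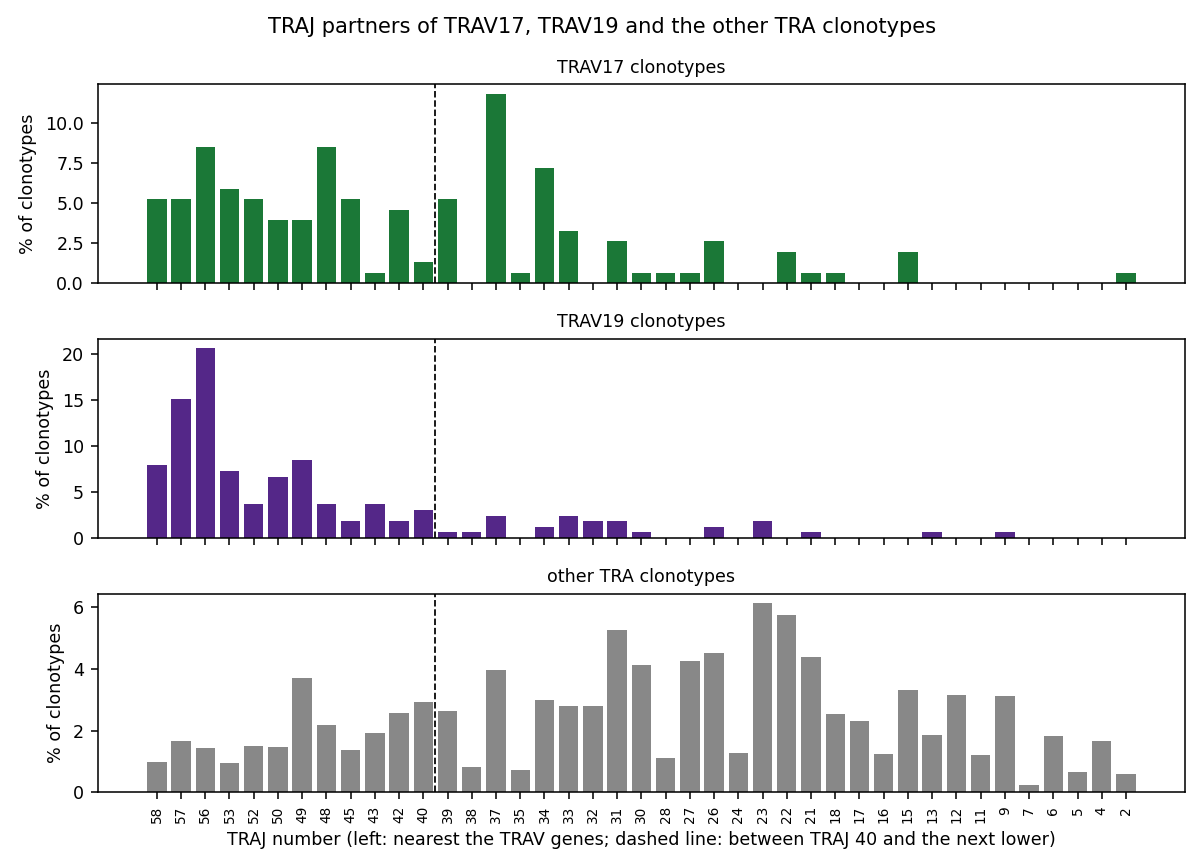
Percent of clonotypes with each TRAJ number for TRAV17 (top), TRAV19 (middle) and the other TRA clonotypes (bottom), with the TRAJ nearest the V genes at the left and separate vertical scales. TRAV19 bars are tallest at TRAJ56 (20.6%) and TRAJ57 (15.2%). The tallest TRAV17 bar is TRAJ37 (11.8%, near copies of larger clonotypes included). The other clonotypes peak to the right of the dashed line below TRAJ 40.

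The pattern was present in each of the 9 numbers that held at least 3 clonotypes of the segment. The number left out, 8, had 1 of 2 TRAV17 clonotypes and 0 of 1 TRAV19 clonotypes with TRAJ 40 or above. TRAV17 shares of clonotypes with TRAJ 40 or above ran from 41.7% in number 11 to 85.7% in number 6, with a median of 61.8%, while the other TRA clonotypes of the same numbers ran from 21.2% to 23.8%. TRAV19 shares ran from 75.0% to 100%, with a median of 87.5%, while the others ran from 21.1% to 23.5%. Neither segment overlapped with the others in any of 9 numbers, and the number with 4 TRAV17 and 3 TRAV19 clonotypes, number 7, lay within these ranges.

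TRAV17 averaged 62.3 ± 13.8% and the other TRA clonotypes 22.4 ± 0.970% (SD, n = 9), a difference of 39.9 percentage points that was positive in 9 of 9 numbers. TRAV19 averaged 88.5 ± 9.99% and the others 22.2 ± 0.869%, a difference of 66.3 percentage points, also positive in 9 of 9. In the exact two-sided sign-flip test over 9 numbers both had p = 0.00391, the smallest that 9 numbers can give, and an adjusted p of 0.0145 over 52 V names. Of those 52 names, 10 had a higher share that passed (19.2%) and 25 a lower one. The calls did not hold in brain or ovary alone, where 6 and 5 numbers cannot reach an unadjusted p below 0.0312 and 0.0625, but the differences there were 39.5 and 39.6 percentage points for TRAV17 and 65.8 and 62.1 for TRAV19.

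**Figure D3:**
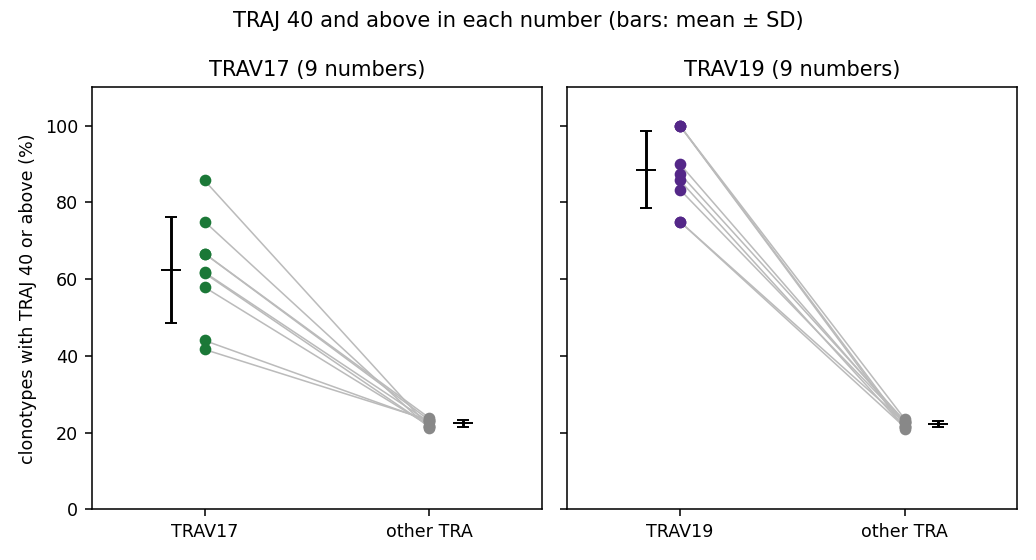
Percent of clonotypes with TRAJ 40 or above in each of 9 numbers for TRAV17 (left panel) and TRAV19 (right panel), each joined by a line to the other TRA clonotypes of the same number, with mean ± SD beside the points. Every TRAV17 point (41.7% or more) and every TRAV19 point (75.0% or more) lies above every point of the other clonotypes (23.8% or less).

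The mean TRAJ number gave the same order. It was 43.7 ± 3.28 for TRAV17 clonotypes and 28.9 ± 0.356 for the others, a difference of 14.8 in TRAJ number (SD, n = 9). For TRAV19 it was 49.5 ± 2.80, against 28.8 ± 0.323 for the others, a difference of 20.7. Both were higher in 9 of 9 numbers, with an adjusted p of 0.0127 in the exact sign-flip test, and 15 of the 52 names passed in this direction (28.8%).

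The segments also differed from each other. TRAV19 exceeded TRAV17 in the share with TRAJ 40 or above by 26.2 percentage points and in mean TRAJ number by 5.85. Each difference was positive in 8 of 9 numbers, with p = 0.00781 and 0.0312 after adjustment over 8 comparisons in the exact sign-flip test. The exception was number 6, where both had 85.7% of clonotypes with TRAJ 40 or above and mean TRAJ numbers of 48.3 for TRAV19 and 49.9 for TRAV17.

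Among the 52 names, TRAV19 had the highest mean TRAJ number, followed by TRAV21/DV12 (48.0 ± 4.21), TRAV14D-2 (45.5 ± 3.93), TRAV17 and TRAV7D-6 (42.0 ± 4.39). These values lay within about an SD of their neighbours in the order. Over the 8 numbers they shared, TRAV19 was above TRAV21/DV12 in 4, and TRAV17 was above TRAV14D-2 in 3 and above TRAV7D-6 in 4. TRAV1, at the far end of the locus, had a mean TRAJ number of 26.3 ± 2.23 and ranked 25th by its difference from the other TRA clonotypes.

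Position in the V array and mean TRAJ number did not go together in a simple way across the locus. Over the 52 names, Spearman's rho between gene order and mean TRAJ number was 0.21, as a description over names that share libraries. TRAV17, TRAV19 and TRAV21/DV12 stood at the J side with high TRAJ numbers, but TRAV8-2, TRAV16 and TRAV14-3, entries 116, 117 and 119, had means of 24.6, 23.5 and 24.2. Entry 118 between them, TRAV13-4/DV7, had a mean of 38.5 and ranked 6th of 52. TRAV14D-2 and TRAV7D-6, entries 35 and 42, were high in spite of a place far from the J genes. The locus of this assembly holds duplicated stretches of V genes, and the gene order of the mice studied was not analysed here.

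**Figure D4:**
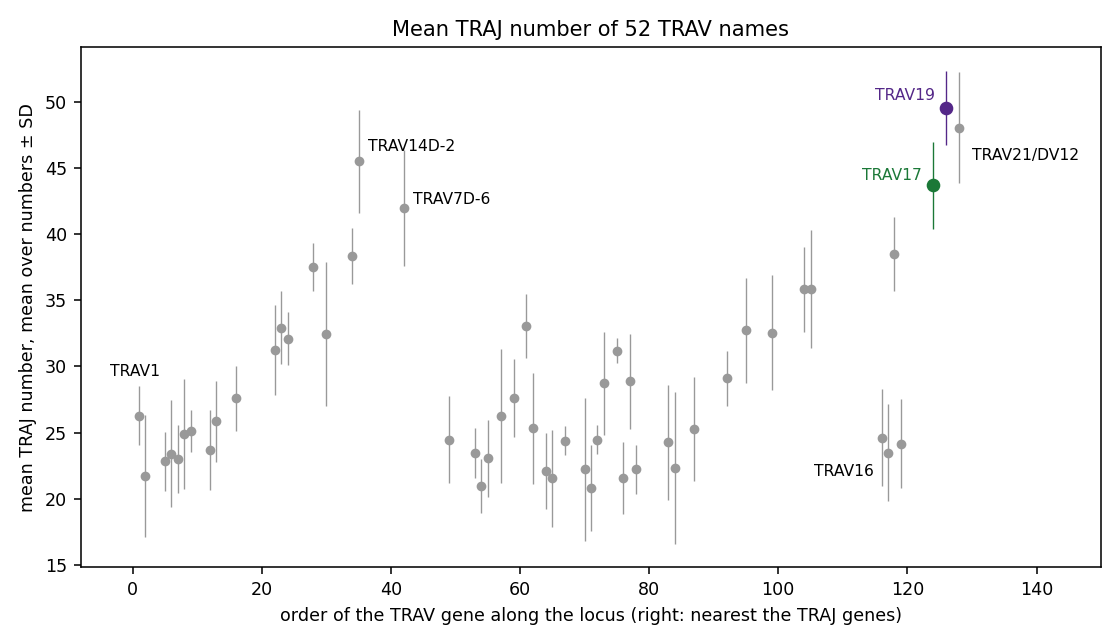
Mean TRAJ number of 52 TRAV names (mean over numbers ± SD) against the order of the gene along the locus, with the TRAJ genes at the right. TRAV19 (49.5), TRAV21/DV12 (48.0) and TRAV17 (43.7) form the group at the upper right, TRAV14D-2 and TRAV7D-6 stand apart at orders 35 and 42, and TRAV16 lies low beside the J end.

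The difference in J usage between organs was not tested. In ovary libraries 60.4% of TRAV17 clonotypes (64 of 106) and 85.3% of TRAV19 clonotypes (99 of 116) had TRAJ 40 or above, and in brain libraries 58.6% (34 of 58) and 85.1% (57 of 67). Within numbers the organs moved either way: TRAV17 had 35.3% in ovary and 60.0% in brain of number 1, but 85.7% in ovary and 42.9% in brain of number 12, where TRAV19 had 63.6% in ovary and 86.7% in brain. By brain treatment TRAV19 had 27 of 29 clonotypes with such a TRAJ in the lead-in combination, 14 of 18 in concurrent treatment, 2 of 3 in trametinib, 10 of 12 in the lead-in alone and 4 of 5 in untreated brains. TRAV17 had 13 of 22, 12 of 17, 1 of 2, 5 of 12 and 3 of 5 in that order. In the ovary TRAV17 had 6 of 7 in the lead-in combination, 6 of 17 in concurrent treatment, 11 of 19 in trametinib, 21 of 34 in the lead-in alone and 20 of 29 in the untreated library. TRAV19 had 7 of 11, 21 of 27, 8 of 8, 36 of 40 and 27 of 30 in that order, so that in the lead-in combination ovary its share lay below that of TRAV17. Differences between treatments in J usage were not tested, since each ovary treatment was 1 number and brain libraries held as few as 0 clonotypes of a segment.

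CDR3 loops of both segments were somewhat longer than those of other alpha chains. TRAV17 clonotypes averaged 14.003 ± 0.219 residues and the others 13.6 ± 0.0821 (SD, n = 9 numbers), and TRAV19 clonotypes averaged 14.1 ± 0.402 against 13.6 ± 0.0842. The differences of 0.42 and 0.51 residues were positive in 8 of 9 numbers each, p = 0.00781 and adjusted p = 0.0290 in the exact sign-flip test, and 9 of 52 names passed as longer (17.3%). Set against other clonotypes with the same TRAJ, an alternative added after the data had been seen, the differences were -0.011 and 0.079 residues, with adjusted p of 0.910 and 0.684. The length calls were also lost for both segments without number 1, 3, 11 or 12 (adjusted p from 0.0510 to 0.0580).

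**Figure D5:**
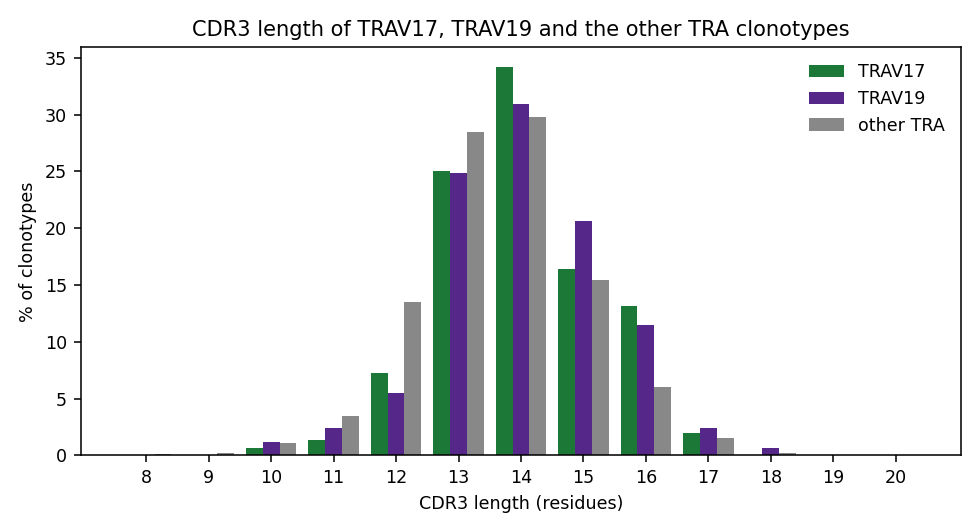
CDR3 length in residues against percent of clonotypes for TRAV17, TRAV19 and the other TRA clonotypes. All peak at 14 residues, and at 16 residues TRAV17 (13.2%) and TRAV19 (11.5%) stand above the other clonotypes, which have more of their clonotypes at 12 residues.

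Most clonotypes of these segments were private to a number. Of TRAV17 clonotypes 9 (5.92%) and of TRAV19 clonotypes 11 (6.67%) occurred in at least 2 numbers, against 6.66% of the other TRA clonotypes. None of TRAV17 and 3 of TRAV19 (1.82%) occurred in at least 3, against 1.65% of the other TRA clonotypes. A clonotype of 13 residues with TRAJ56 held 24 counts over numbers 3, 10 and 14, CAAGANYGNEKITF with TRAJ48 held 18 over numbers 1, 11 and 13, and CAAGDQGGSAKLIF with TRAJ57 held 4 over numbers 1, 10 and 12. Each was thus seen under 3 treatments and in both organs.

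The largest TRAV17 clonotype, with TRAJ53, held 199 counts in the ovary of number 12, 10.3% of TRAV17 counts in the series. It made up 199 of the 240 TRAV17 counts of that library, so the share of 0.470% given for the lead-in combination ovary rests mostly on it. The next, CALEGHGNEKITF with TRAJ48, held 177 in the ovaries of numbers 3 and 10. In brain the largest was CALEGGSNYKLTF with TRAJ53, with 35 counts in number 14. The largest TRAV19 clonotype, with TRAJ56, held 87 counts in the ovary of number 10, 9.45% of TRAV19 counts, and the largest in brain was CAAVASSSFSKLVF with TRAJ50, with 17 counts in number 14. The 10 largest clonotypes held 59.6% of TRAV17 counts and 39.6% of TRAV19 counts.

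The organs of a number shared few of these clonotypes. Of TRAV17 clonotypes, 3 were in both organs of a number, 2.83% of those in ovary and 16.7% of those in brain. Of TRAV19 clonotypes, 4 were shared, 3.45% of those in ovary and 13.3% of those in brain. The other TRA clonotypes shared 7.54% of those in ovary and 27.7% of those in brain, and the difference was not tested. The largest shared clonotype was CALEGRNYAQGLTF, TRAV17 with TRAJ26, with 125 counts in the ovary and 8 in the brain of number 1.

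A V name may be uncertain where the same CDR3 and TRAJ stood under more than 1 name, and the cause was not tested. For 19 of 152 TRAV17 clonotypes and 33 of 165 TRAV19 clonotypes, the same CDR3 and TRAJ were also listed under another V name. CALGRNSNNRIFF with TRAJ31, for example, held 168 TRAV17 counts in the ovary of number 10 and was listed under TRAV6N-7 and TRAV9N-4 too. Near copies, 1 substitution away from a clonotype of the same V, J and length with at least 10 times the counts in that number, made up 12.4% of TRAV17 and 4.47% of TRAV19 clonotypes counted per number. Without them, an alternative added after the data had been seen, the differences in TRAJ 40 or above were 40.2 and 65.4 percentage points. Neither shared listings nor near copies were counted for the other TRA clonotypes, so neither can be called particular to these segments.

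Over the 15 libraries, the shares most like those of TRAV17 among 48 single TRAV names were TRAV4D-3 (Spearman's rho 0.67), TRAV7-1 (0.57) and TRAV19 (0.51). Those most like TRAV19 were TRAV17 (0.51), TRAV4N-4 (0.47) and TRAV7-2 (0.46). Shares of 1 library depend on its depth and on each other, so these values are a description.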

How the data were processed

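For 29 samples the authors deposited 1 table of raw whole-number counts per chain, V, J and CDR3. The labels' protocols name QIAseq Immune Repertoire libraries. Whether counts are reads or molecules is not stated, the aligner and caller are not given in the sources used, and the submitters' processing notes name GRCh38, a human build, so no coordinates are printed. No productive column is used: rows with an unresolved residue (43 of 22002 TRA rows, none a member) were left out. Joined names (78, of which 1 holds TRAV18 with 6 counts) were kept apart.

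Parts were summed per number. V counts were fitted with edgeR 4.0.16 in R 4.3.3 (quasi-likelihood; the log total of the chain as offset; at least 10 counts in at least 2 libraries), with DESeq2 1.42.0 as an alternative. For J usage and CDR3 length a clonotype was counted once per number, and names with at least 3 clonotypes in at least 6 numbers were tested by exact two-sided sign-flips. Adjustment was by Benjamini-Hochberg at 0.05 over all names. Both methods were run on simulated data with known changes, as a check of the calculation. The spread in the usage simulation was a fixed setting and was not taken from these libraries, so it does not show the power here. Python 3.11.15, pandas 2.3.3 and scipy 1.17.1 were used. A zero allows up to 3 counts of the total, for counting error only.

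Deviations of V usage from organ means correlated at 0.157 to 0.520 between organs of the same number and at most 0.0839 between different numbers, which was taken as pairing by number. Each number sampled in both organs had a treatment of its own, so a shared number and a shared treatment cannot be told apart here. The members, the lists and the naming rule (3 most frequent partners, largest clonotype per organ, clonotypes in 3 numbers, 3 names of most similar share) were chosen with earlier results of these data known.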

Additional observations from a re-analysis of the deposited data

Results flagged for a closer look

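In the trametinib brains, part 1 of number 8 held 0.655% TRAV17 (4 counts), while the other 3 samples of that group held 0 counts. Those zeros allow shares of up to 0.348%, 0.450% and 0.872%, the last for part 2 of the same number, so the 4 counts do not show a sample apart from the others. TRAV19 clonotypes of number 7, an untreated brain, averaged 15 residues over 3 clonotypes, while the other 8 numbers averaged 13.6 to 14.3. Of 14 groups of samples or numbers examined for a value apart from the rest, these 2 met the numerical limit, where chance gives about 1 in 20.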

How the results depend on the processing

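The TRAJ 40 share and the mean TRAJ number of both segments were higher than in other TRA clonotypes under every alternative run; the share was called under each except brain alone (39.5 and 65.8 percentage points for TRAV17 and TRAV19) and ovary alone (39.6 and 62.1), and the mean under each except ovary alone (13.96 and 20.5 in TRAJ number), where 5 numbers cannot pass. Leaving out a number gave 36.8 to 42.6 points for TRAV17 and 64.7 to 68.0 for TRAV19, and 13.9 to 15.4 and 20.1 to 21.02 in mean TRAJ number. Of 52 names, 35 were called for the share (22 by counts, 0 in brain alone, 0 in ovary alone, 26 to 37 without a number) and 39 for the mean (22 by counts, 24 in brain alone, 0 in ovary alone, 37 to 40 without a number). CDR3 length was not called by counts (0.407 residues for TRAV17, 0.651 for TRAV19), for TRAV17 without single counts (0.401), in brain alone (0.411 and 0.771), in ovary alone (0.468 and 0.279) or against the same TRAJ (-0.011 and 0.079), and gave 0.366 to 0.480 for TRAV17 and 0.379 to 0.587 for TRAV19 without a number. The count of length calls, 19, was 0 by counts, 6 in brain alone, 0 in ovary alone and 0 to 22 without a number. Apart from number 1, 3, 11 or 12, leaving out number 6 ended the TRAV19 length call.

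No usage comparison called TRAV17 or TRAV19 under any alternative run. Calls over all names, 0 in each main comparison, were 6 by DESeq2, 9 when each part was its own library and 8 with all 15 libraries for ovary against brain, 0 with numbers as a block and 0 without any number. Treating each part separately, they were 1 for the 5 treatments, 1 for the lead-in combination against concurrent treatment and 4 for anti-PD-L1 against none; without a filter on low counts, 1, 1 and 0. Without a number they were 0 to 2 for the lead-in combination (2 without number 14) and 0 to 2 for anti-PD-L1 (2 without number 7). With numbers as a paired block, ovary over brain was 1.79 on the log2 scale for TRAV17 and -0.24 for TRAV19, and no call changed. Uncalled directions turned for TRAV19, ovary over brain (0.093 by TMM within the TRA chain, 0.13 without the largest clonotype of each name, 0.063 by clonotypes, and -0.87 to 0.37 without a number), for TRAV17, lead-in combination over concurrent (-0.058 without the largest clonotype, -0.29 by clonotypes, -1.10 to 0.82 without a number), for TRAV19 there (-0.53 to 0.63 without a number), and for anti-PD-L1 over none (TRAV17 -3.61 to 3.39 without a number; TRAV19 0.68 without the largest clonotype and 0.21 by clonotypes). Trametinib over untreated for TRAV17 was -8.76 to 0.43 without a number. The cause was not tested. Ovary over brain for TRAV17 stayed positive and uncalled, at 1.07 to 2.45 without a number and 0.29 with all 15 libraries. Brain libraries of 635 to 18282 TRA counts held 0 to 105 TRAV17 counts, which limits their precision; no depth-matched comparison was run.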

Other observations

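The 2 parts of a number shared 17.9% of TRAV17 clonotypes (19 of 106) and 9.48% of TRAV19 clonotypes (11 of 116) in the ovary. In the brain they shared 7.41% (4 of 54) and 9.38% (6 of 64). The overlap of parts was not computed for the other TRA clonotypes, so these shares cannot be called particular to the segments. Clonotypes with a single count made up 30.3% of TRAV17 and 35.2% of TRAV19 clonotypes, against 31.4% of the other TRA clonotypes. TRAV17 clonotypes held a median of 4 counts, against 2 for TRAV19 and 3 for the other TRA clonotypes.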
